A study of Homo sapiens with 30 samples.

Results

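The genes described here are 33 genes of fatty acid oxidation, taken by name from a table of 38122 Ensembl genes; all 33 were found. They fall into 7 genes of carnitine uptake and the carnitine shuttle, 19 genes of the mitochondrial steps, 5 genes of the peroxisomal steps and 2 regulators. RNA was sequenced from 3 established human carcinoma lines, FaDu from the hypopharynx, HCT116 from the colon and SiHa from the cervix, each grown in medium of pH 6.5 or pH 7.4. Each of these 6 groups has 5 libraries, and there was no other treatment or genetic change in the labels. Cells at pH 6.5 had been held there for at least 1 month. All groups shared a medium with 10% serum, glucose at 10 mM, glutamine at 2 mM and the buffers PIPES and HEPES at 25 mM each, in incubators at 37 °C with 5% CO2. Separate cultures are not stated for the libraries of a group, so p-values measure the spread between libraries, which may be technical. The series concerns acidosis in tumours and the loss of fat tissue, and each comparison asks which of these genes differ between cells kept at pH 6.5 and cells kept at pH 7.4.

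Fatty acids of long chain enter mitochondria as carnitine esters. CPT1 makes the ester at the outer membrane, the carrier SLC25A20 moves it inward, and CPT2 turns it back into an acyl-CoA. In the matrix, acyl-CoA dehydrogenases take the first hydrogen pair and pass the electrons through ETFA, ETFB and ETFDH to the respiratory chain, after which hydratase, hydroxyacyl-CoA dehydrogenase and thiolase steps shorten the chain. Peroxisomes carry out a parallel set of steps on very long and branched chains. PPARA is a nuclear receptor that activates many of these genes in liver, and PPARGC1A is a coactivator of mitochondrial gene programmes.

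All values are the deposited normalised read counts, and changes are log2 differences of the normalised count plus 1 with their standard error (SE). A gene was tested where at least 1 of the 2 groups had a mean of 10 or more, and it was called where the limma p adjusted over all genes tested was under 0.05. The libraries held 21.02 to 55.7 M reads, and a count of 0 allows up to 3 reads, which is 1.90 to 5.01 normalised counts in these libraries; that limit covers counting error only. Of the 30 libraries, 9 are kept apart, chosen with the data known. In the FaDu pH 7.4 replicates 2 to 5, the median gene restricted to HCT116 had 80.4%, 30.6%, 42.7% and 61.9% of its level in HCT116. In the HCT116 pH 6.5 replicates 5 to 7, the median gene restricted to SiHa had 37.5%, 101% and 104% of its level in SiHa. The SiHa pH 7.4 replicates 6 and 7 held 2817 and 2863 counts of VIM, a mesenchymal filament gene. The SiHa pH 7.4 replicates 1, 4 and 5, which were kept, held 2.0, 28.4 and 164.7, and the SiHa pH 6.5 libraries held 0 to 5.6. The restricted genes were chosen from FaDu pH 6.5, HCT116 pH 7.4 and SiHa pH 6.5, so the values there follow from the choice. In the rest of the 21 libraries that remain, the median gene restricted to their own line had 77.8% to 96.7% of its level in that line. The median gene restricted to another line had at most 0.0465%. The 21 libraries leave 5 against 3 in SiHa, 2 against 5 in HCT116 and 5 against 1 in FaDu. In FaDu the lone pH 7.4 library is assumed to vary like the pH 6.5 libraries. Values with all libraries as labelled are given where they end or add the call of a member. In FaDu and HCT116 such runs add libraries that hold genes restricted to another line. There a difference between pH groups and a difference between lines cannot be told apart.

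Of 10 squamous markers, 8 to 10 had a mean of at least 10 in the FaDu and SiHa groups; of 10 colon markers, 6 to 7 did in HCT116, where CDX1 was at 0. Some marker lists moved with pH. In HCT116 the colon list summed to 10474 to 11198 at pH 6.5 and 14594 to 16372 at pH 7.4. The squamous list there, with 8 of 10 markers at that level at pH 6.5 and 5 of 10 at pH 7.4, summed to 21560.2 to 29333 at pH 6.5 and 37016 to 44277 at pH 7.4. In SiHa the colon list, with 2 of 10 and 3 of 10 markers at that level, summed to 63.2 to 151 at pH 6.5 and 483 to 575 at pH 7.4. In SiHa the fibroblast list summed to 1132 to 3463 at pH 6.5 and 2989 to 4166 at pH 7.4, with 6 of 9 markers and 7 of 9 markers at a mean of at least 10. In SiHa the liver or renal tubule list summed to 0 to 23.1 at pH 6.5 and 346 to 1032 at pH 7.4. At a mean of at least 10 it had 0 of 4 and 1 of 4 markers. In HCT116 that list went the other way, with 19.4 to 22.9 at pH 6.5 and 6.1 to 14.7 at pH 7.4. The adipocyte list in HCT116 summed to 141 to 193 at pH 6.5 and 329 to 576 at pH 7.4, with 1 of 6 and 2 of 6 markers at that level. The part of these lists in the results was not tested.

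**Figure D1:**
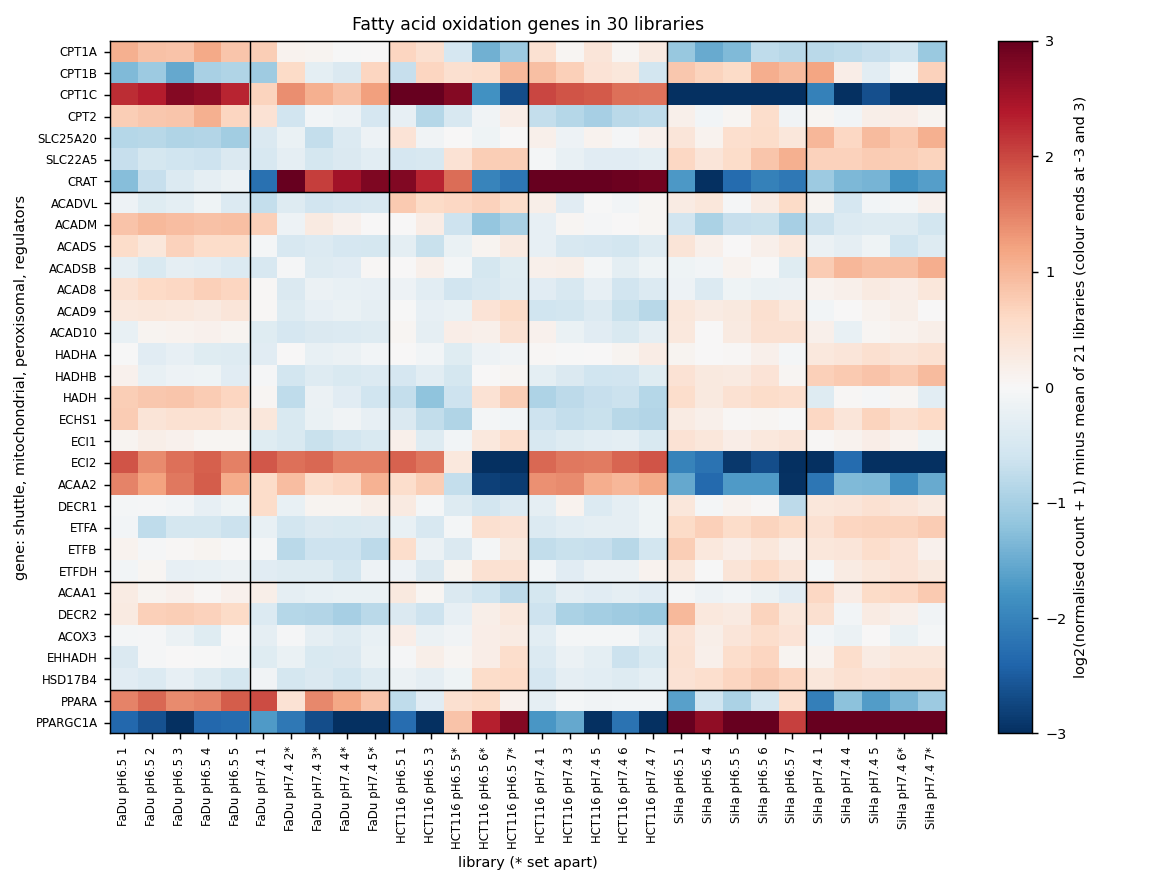
Levels of the members with a mean of at least 10 (rows, ordered by class) in all 30 libraries (columns, pH 6.5 left of pH 7.4 in each line, libraries kept apart marked with an asterisk), as log2 of the normalised count plus 1 minus the mean of the 21 libraries not kept apart. CRAT is high in the HCT116 libraries other than pH 6.5 replicates 6 and 7 and in FaDu pH 7.4 replicates 2 to 5, and PPARGC1A is high in SiHa and in HCT116 pH 6.5 replicates 5 to 7.

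Fatty acid oxidation genes did not move as a block at pH 6.5. In SiHa, 14 of 31 members tested were called, 45.2%, against 31.2% of all genes tested. Of these, 5 were higher (15% of all genes were) and 9 were lower (16.2%). In HCT116, 7 of 31 were called, 22.6%, against 20.2% of all genes. Of these, 5 were higher (9.11% of all genes) and 2 were lower (11.1%). In FaDu, 6 of 30 were called, 20%, against 7.36% of all genes, 5 of them higher (4.24%) and 1 lower (3.12%). The libraries of the pH groups did not overlap for 15 of 31 members in SiHa (35.5% of all genes), 12 of 31 in HCT116 (36.2%) and 22 of 30 in FaDu (57.1%). In bulk RNA, fewer cells of a type and less RNA per cell cannot be told apart. The median change of the members was 0.01 in SiHa, 0.13 in HCT116 and 0.20 in FaDu, beside medians over all genes of -0.01 in each line. The SiHa count was 9 without pH 7.4 replicate 5, and the HCT116 count was 2 without pH 6.5 replicate 1 and 4 without pH 7.4 replicate 3. The FaDu count was 14 without pH 6.5 replicate 1, 1 without replicate 2, 0 without replicate 3, 0 without replicate 4 and 2 without replicate 5. At an unadjusted p under 0.05, 10 members passed without replicate 3 and 10 without replicate 4. Over all genes in FaDu, limma called 812 higher and 599 lower, and edgeR on whole reads called 599 higher and 769 lower. The FaDu count over all genes also rose without replicate 1 and fell without replicate 2, 3, 4 or 5. With all libraries as labelled, 17 members were called in SiHa (40.8% of all genes), 5 in HCT116 (18.2%) and 17 in FaDu (46.3%).

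By limma, 0 members were called in all 3 lines, 7 in 2 lines, 13 in 1 line and 13 in none. At an unadjusted p under 0.05, 3 members passed in all 3 lines: ACADVL, ACAD9 and CRAT. By edgeR 0 were called in all 3, and by DESeq2 1, CRAT, whose sign differs between the lines. ACAD11, among the 13 in none, was not tested in any line. The share of all genes called in 2, 1 or no line, or passing at the unadjusted p in all 3, was not counted. These counts therefore describe the members only. Of 29 members tested in every line, 9 had the same sign in the 3 lines, which is 31%, against 27% of 15888 genes. Of these, 8 were on the higher side at pH 6.5, CPT2, ACADVL, ACAD9, ACAD10, ECI1, DECR2, ACOX3 and EHHADH, and SLC22A5 was on the lower side.

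**Figure D2:**
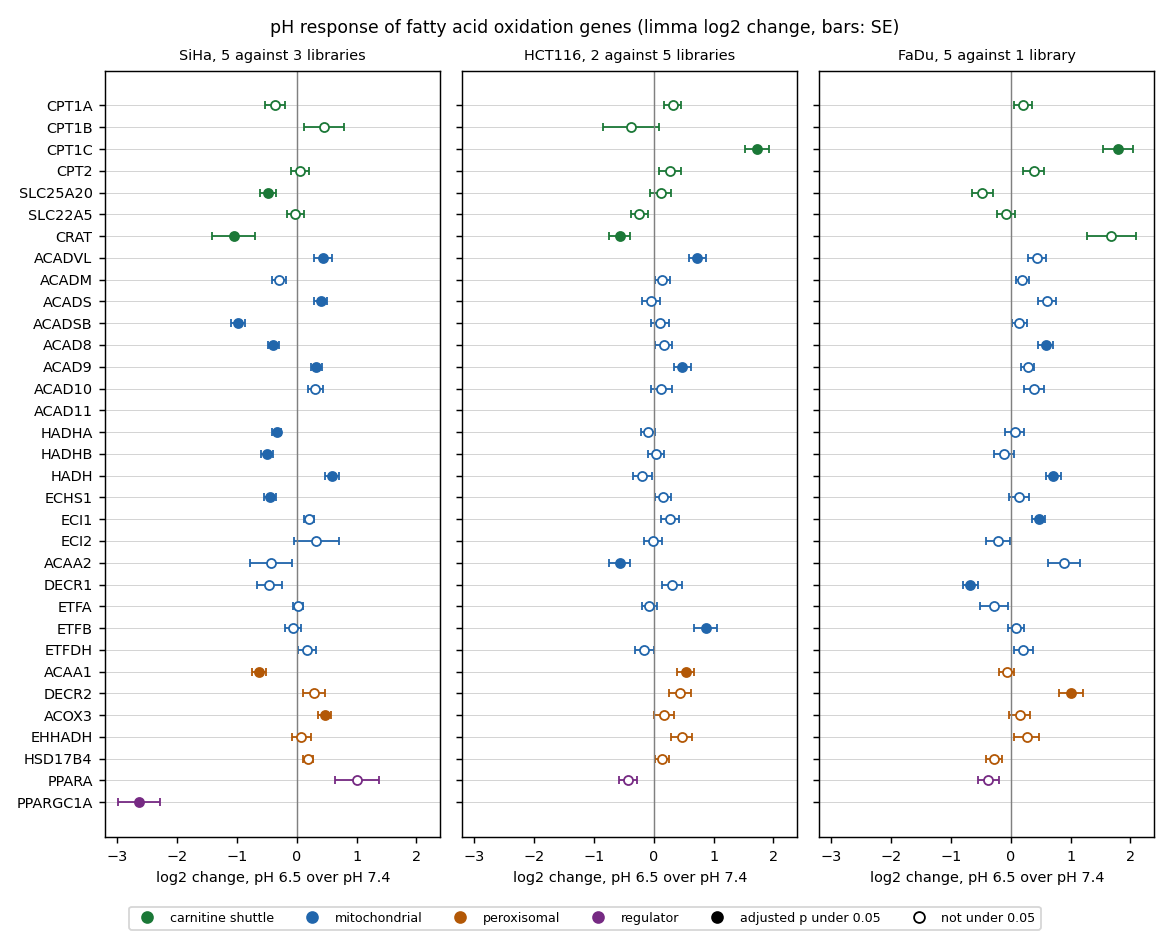
Change of each member at pH 6.5 over pH 7.4 as limma log2 change (x axis, bars are the SE), in SiHa, HCT116 and FaDu from left to right; filled points have an adjusted p under 0.05 and a missing point was not tested. The lowest point is PPARGC1A in SiHa at -2.64, and the highest are CPT1C in FaDu at 1.79 and in HCT116 at 1.73.

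The carnitine shuttle opens with CPT1. Its gene family has 3 members: CPT1A of liver and most cells, CPT1B of muscle and CPT1C of brain. Whether CPT1C carries out the shuttle step in these cells was not tested. CPT1C was the member with the largest rise. In HCT116 it had 552 and 414 counts at pH 6.5, against 165, 152, 147, 130.2 and 127 at pH 7.4. The groups did not overlap, and the change was 1.73 ± 0.20 (adjusted p = 8.92e-05), which held when any 1 library was left out. With all libraries as labelled the HCT116 change was -0.74 (adjusted p = 0.658), where 2 of the added libraries, replicates 6 and 7, held 10.8 and 5.54 counts and replicate 5 held 278. In FaDu it had 193, 210.3, 279.9, 262 and 201 counts at pH 6.5, against 64.8 in the lone pH 7.4 library. All 5 stood above that library, with a change of 1.79 ± 0.26 (adjusted p = 0.0169). The adjusted p was 0.0625 without replicate 3 and 0.0644 without replicate 4. SiHa held at most 9.17 counts of CPT1C in any library and was not tested.

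CPT1A did not pass the test in any line. It had 1099.7, 851, 970.1, 1442 and 1359 counts in SiHa at pH 6.5, against 1386, 1444 and 1505 at pH 7.4, and the groups overlapped (change -0.36 ± 0.16, adjusted p = 0.108). HCT116 had 3804 and 3379 counts at pH 6.5, against 3341, 2545, 3148, 2525 and 2950.3 at pH 7.4, a change of 0.31 ± 0.14 (adjusted p = 0.144). In FaDu the pH 6.5 libraries held 5102, 4506, 4388, 5392 and 4303 counts, against 4097 at pH 7.4 (change 0.20 ± 0.15, adjusted p = 0.425). With all libraries as labelled the FaDu change was 0.77 (adjusted p = 0.0026). CPT1B held 5.25 to 40.7 counts over the 21 libraries and was not called in SiHa or HCT116. In FaDu it passed the limit for testing only with all libraries as labelled (change -1.05, adjusted p = 0.0329). Of its exon bases, 66.4% lie also in the read-through gene CHKB-CPT1B, so its counts are uncertain.

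CPT2, the inner-membrane transferase, did not pass the test in any line. In SiHa it had 658, 558, 614, 850.4 and 551 counts at pH 6.5, against 616, 558 and 673 at pH 7.4 (change 0.05 ± 0.15, adjusted p = 0.803). The HCT116 libraries had 501 and 325 at pH 6.5, against 363, 327, 296, 339 and 347 at pH 7.4 (0.27 ± 0.19, adjusted p = 0.336). In FaDu it had 985, 1043, 1058, 1251 and 933 at pH 6.5, against 804 at pH 7.4 (0.38 ± 0.17, adjusted p = 0.193). With all FaDu libraries as labelled the change was 1.00 (adjusted p = 0.00215).

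SLC25A20, the carrier of acylcarnitine across the inner membrane, fell in SiHa. It had 549.8, 462, 609.7, 629 and 544 counts at pH 6.5, against 854, 655 and 826 at pH 7.4, with no overlap (change -0.48 ± 0.13, adjusted p = 0.0208). The call was lost without pH 7.4 replicate 1 (0.0876) or replicate 5 (0.0914). In FaDu the SLC25A20 change was -0.47 ± 0.17 (adjusted p = 0.124), with 209 to 241 counts at pH 6.5 against 319 at pH 7.4, and in HCT116 it was 0.12 ± 0.18 (adjusted p = 0.692). The FaDu change passed without pH 6.5 replicate 1 (-0.49, adjusted p = 0.0384) and with all libraries as labelled (-0.52, adjusted p = 0.00891). SLC22A5, the carnitine importer of the plasma membrane, had changes of -0.03 in SiHa, -0.24 in HCT116 and -0.08 in FaDu, none of them called.

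CRAT, which moves acetyl groups between CoA and carnitine, was low in SiHa and FaDu and high in HCT116. In SiHa it had 44.5, 12.6, 29.6, 36.2 and 33.3 counts at pH 6.5, against 70.3, 57.8 and 56.4 at pH 7.4. The groups did not overlap and the change was -1.05 ± 0.36 (adjusted p = 0.0435). Leaving out pH 6.5 replicate 5 gave an adjusted p of 0.069 and replicate 6 gave 0.0558; leaving out pH 7.4 replicate 1, 4 or 5 gave 0.136, 0.0935 and 0.0969. HCT116 had 1037 and 729 counts at pH 6.5, against 1609.95, 1285, 1314, 1162 and 1124 at pH 7.4, a change of -0.57 ± 0.18 (adjusted p = 0.0419). That call was lost without pH 6.5 replicate 3 (0.307) and without pH 7.4 replicate 3 (0.0729), 5 (0.0839) or 6 (0.0509), and with all libraries as labelled (0.0809, change -2.58). In FaDu it had 61.4, 91.6, 113, 123 and 133 counts at pH 6.5, against 30.8 at pH 7.4 (change 1.68 ± 0.41, adjusted p = 0.0539), and without replicate 1 it was 1.86 (adjusted p = 0.00177). With all libraries as labelled the FaDu change was -2.23 (adjusted p = 0.0579), since the FaDu pH 7.4 replicates 2 to 5 held 1359, 638, 859 and 1043 counts.

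**Figure D3:**
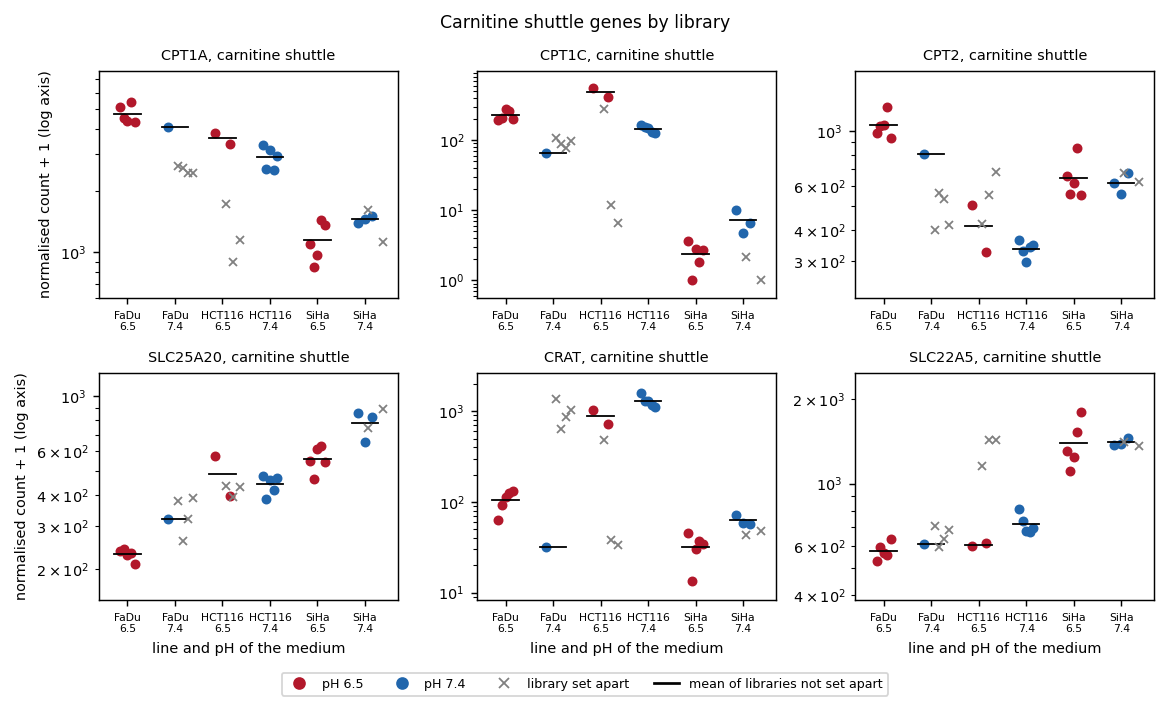
Normalised counts plus 1 (log axis) of 6 carnitine shuttle genes in each library, by line and pH, with pH 6.5 left of pH 7.4; bars are means of the libraries not kept apart and crosses are libraries kept apart. CPT1C stands at 414 to 552 in HCT116 at pH 6.5 and 127 to 165 at pH 7.4, while CPT1A and CPT2 overlap between the pH groups of SiHa.

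The mitochondrial trifunctional protein carries out the last 3 steps on long chains. Its alpha subunit, HADHA, has the hydratase and dehydrogenase activities and its beta subunit, HADHB, is the thiolase. Both fell in SiHa. HADHB had 4926, 4477, 4432, 4862 and 3793 counts at pH 6.5, against 6009.5, 6292 and 6646 at pH 7.4 (change -0.49 ± 0.10, adjusted p = 0.0039). HADHA had 7019.7, 6617, 6772, 7402 and 6299 counts at pH 6.5, against 8179, 8535 and 9147 at pH 7.4 (change -0.34 ± 0.08, adjusted p = 0.011). For both genes every pH 6.5 library was below every pH 7.4 library. The HADHB call held when any 1 library was left out, and the HADHA call was lost without pH 7.4 replicate 5 (0.0648). Each of these 2 calls was lost in 1 of 13 runs with other settings. In HCT116 the changes were -0.10 for HADHA and 0.04 for HADHB, and in FaDu 0.07 and -0.11, none of them called.

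The 2 subunit genes lie head to head, and their promoter windows are shown because both genes moved in SiHa and share the sequence between their starts. The windows, from RefSeq on GRCh38.p14, run from 250 bases before to 50 bases after each start, HADHA at chr2:26244583-26244882 on the minus strand and HADHB at chr2:26244689-26244988 on the plus strand. Their starts lie 307 bases apart and the windows share 194 bases. Each sequence is written 5′ to 3′ on its gene's own strand, with GGGCGG and its reverse complement CCGCCC, a GC box, in capitals.
HADHA: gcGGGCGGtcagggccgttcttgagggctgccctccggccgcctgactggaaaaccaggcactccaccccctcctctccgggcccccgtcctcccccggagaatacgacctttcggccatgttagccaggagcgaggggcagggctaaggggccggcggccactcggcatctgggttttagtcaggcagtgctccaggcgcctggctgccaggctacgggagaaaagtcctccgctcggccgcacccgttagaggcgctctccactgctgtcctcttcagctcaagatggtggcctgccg
HADHB: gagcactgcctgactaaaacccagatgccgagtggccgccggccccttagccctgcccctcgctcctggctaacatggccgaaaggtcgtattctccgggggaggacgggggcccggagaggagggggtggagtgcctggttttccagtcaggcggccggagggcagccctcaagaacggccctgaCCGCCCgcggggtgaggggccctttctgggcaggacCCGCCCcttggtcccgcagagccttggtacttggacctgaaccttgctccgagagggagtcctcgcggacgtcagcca

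The GC box was found on either strand in the window of 23 of the 25 members that have one, 92%, and in those of 64.3% of 15843 genes. The E-box CACGTG was found in 2 members, ACAD9 and PPARGC1A, which is 8% of members and 10.9% of genes. An exact copy of the PPAR response element, a direct repeat that PPARA binds with RXRA, was found in 0 of 25 members and in 0.0316% of genes, and TCAAGGTCA, a form of the site of estrogen-related receptors, in 0 of 25 members and in 0.335% of genes. These counts describe letters in 300 bases only.

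Acyl-CoA dehydrogenases take the first step, and those for different chains moved in different ways. ACADSB, which acts on short branched chains from isoleucine, fell in SiHa to 1306, 1346, 1541, 1431 and 1123 counts at pH 6.5, against 2445, 2850.2 and 2670.0 at pH 7.4. The highest pH 6.5 library was far below the lowest pH 7.4 library, the change was -0.98 ± 0.11 (adjusted p = 0.000191), and it held when any 1 library was left out. In HCT116 the ACADSB change was 0.11 ± 0.15 and in FaDu 0.15 ± 0.13, neither of them called. ACAD8, which acts on isobutyryl-CoA from valine, had 1194, 1012, 1223, 1167 and 1175 counts in SiHa at pH 6.5, against 1428, 1494 and 1619.8 at pH 7.4 (change -0.39 ± 0.10, adjusted p = 0.0106; 0.0628 without pH 7.4 replicate 5). In FaDu it was higher, with 1832, 2035, 2062, 2174 and 2085 counts at pH 6.5 against 1359.9 at pH 7.4 (0.58 ± 0.13, adjusted p = 0.0416). That call was lost without replicate 2 (0.0883), 3 (0.118), 4 (0.115) or 5 (0.0908).

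ACADVL, the dehydrogenase for very long chains, rose in SiHa and HCT116. In HCT116 it had 14188 and 12245 counts at pH 6.5, against 9307, 6425, 8081, 7761 and 8519.8 at pH 7.4, with no overlap (change 0.73 ± 0.15, adjusted p = 0.00464; 0.0626 without pH 6.5 replicate 1). In SiHa it had 9770.2, 10275, 7938, 9670.2 and 12166 counts at pH 6.5, against 8696, 5719 and 7692 at pH 7.4, and these overlapped (0.44 ± 0.15, adjusted p = 0.0467). The SiHa call was lost without pH 6.5 replicate 1 (0.056), 4 (0.0823), 6 (0.0757) or 7 (0.0762) and without pH 7.4 replicate 4 (0.2) or 5 (0.0907). ACAD9, a relative of ACADVL that also takes part in complex I assembly, rose by 0.33 ± 0.09 in SiHa (adjusted p = 0.016; 0.0671 without pH 7.4 replicate 1). In HCT116 ACAD9 had 1872 and 1587 counts at pH 6.5, against 1248, 1292, 1417, 1193 and 1070.1 at pH 7.4 (0.48 ± 0.14, adjusted p = 0.0354). That call was lost without pH 6.5 replicate 1 (0.227) or pH 7.4 replicate 3 (0.0582), 6 (0.0755) or 7 (0.0774). In FaDu neither was called, with ACADVL at 0.44 ± 0.14 (adjusted p = 0.103) and ACAD9 at 0.28 ± 0.11 (adjusted p = 0.134). Both passed there without pH 6.5 replicate 1 (ACADVL 0.0303, ACAD9 0.03) and with all libraries as labelled, where ACADVL was at 0.26 (adjusted p = 0.0288) and ACAD9 at 0.53 (adjusted p = 0.00107).

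ACADS, for short chains, rose in SiHa by 0.40 ± 0.11 (adjusted p = 0.0165; 0.0628 without pH 7.4 replicate 4), with 984 to 1286 counts at pH 6.5 and 808 to 892 at pH 7.4. In FaDu the ACADS change was 0.60 ± 0.15 (adjusted p = 0.0534), with 1237 to 1577 counts at pH 6.5 against 934 at pH 7.4, and in HCT116 it was -0.04 ± 0.16 (adjusted p = 0.877). The FaDu change of ACADS passed without pH 6.5 replicate 1 (0.012), by DESeq2 (0.0108) and with all libraries as labelled (0.94, adjusted p = 0.000259). ACADM, for medium chains, had changes of -0.29 in SiHa, 0.14 in HCT116 and 0.19 in FaDu, and ACAD10 had 0.31, 0.13 and 0.39 in the same order; none was called. The SiHa adjusted p of ACADM was 0.0437 without pH 6.5 replicate 1, and that of ACAD10 was 0.032 without pH 6.5 replicate 4. With all libraries as labelled ACADM passed in SiHa (-0.30, adjusted p = 0.0283) and in FaDu (0.71, adjusted p = 0.00298), and ACAD10 in FaDu (0.46, adjusted p = 0.00305). The FaDu pH 7.4 libraries kept apart held 2376 to 3152 counts of ACADM, against 4296 in the one that was kept. Without FaDu pH 6.5 replicate 1, ACAD10 had an adjusted p of 0.0081. ACAD11 held at most 6.27 counts in any of the 21 libraries and was not tested; 83.8% of its exon bases are shared with other genes.

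HADH, the dehydrogenase for medium and short hydroxyacyl chains, moved opposite to HADHA in SiHa. HADH had 2384, 2030.2, 2254, 2441 and 2345 counts at pH 6.5, against 1265, 1707 and 1625 at pH 7.4. The groups did not overlap, the change was 0.59 ± 0.11 (adjusted p = 0.00321) and it held when any 1 library was left out. HADH was also higher in FaDu, with 2761, 2917, 2967, 2816 and 2565 counts at pH 6.5 against 1711 at pH 7.4 (0.71 ± 0.12, adjusted p = 0.023), lost without replicate 2 (0.0573), 3 (0.0813) or 4 (0.0811). In HCT116 HADH had 999 and 713 counts at pH 6.5, against 875, 961, 1030.0, 1054 and 913 at pH 7.4 (-0.19 ± 0.16, adjusted p = 0.426).

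ECHS1, the hydratase for short chains, fell in SiHa, where its call was lost in 1 of 13 runs with other settings. It had 4165, 3894, 3574, 3667 and 3484 counts at pH 6.5, against 5367, 4479 and 5534 at pH 7.4, with no overlap (change -0.45 ± 0.10, adjusted p = 0.0065), and this held when any 1 library was left out. Its changes were 0.15 ± 0.13 in HCT116 and 0.14 ± 0.16 in FaDu, neither called; as labelled ECHS1 was at 0.61 in FaDu (adjusted p = 0.00629). ECI1, an isomerase for unsaturated chains, was higher in FaDu with 3831, 4067, 3943, 3762 and 3746 counts at pH 6.5 against 2796 at pH 7.4 (0.47 ± 0.11, adjusted p = 0.0469), and the call was lost without replicate 2 (0.0961), 3 (0.132), 4 (0.122) or 5 (0.0916). In SiHa ECI1 was at 0.21 ± 0.08 (adjusted p = 0.0719), and it passed by DESeq2 (0.0486) and with all libraries as labelled (0.26, adjusted p = 0.0146). In HCT116 it was at 0.27 ± 0.15 (adjusted p = 0.22) and passed without pH 6.5 replicate 3 (0.0289).

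DECR1, a reductase for unsaturated chains, was the member that fell in FaDu. It had 1507, 1525, 1485, 1320.1 and 1432 counts at pH 6.5, against 2324 at pH 7.4 (change -0.68 ± 0.13, adjusted p = 0.0275). The call was lost without replicate 2 (0.0595), 3 (0.0903), 4 (0.0819) or 5 (0.0671), and with all libraries as labelled the change was -0.25 (adjusted p = 0.129). In SiHa DECR1 was at -0.46 ± 0.20 (adjusted p = 0.108; 0.0419 without pH 6.5 replicate 1) and in HCT116 at 0.30 ± 0.16 (adjusted p = 0.207). ACAA2, the mitochondrial thiolase for shorter chains, fell in HCT116, with 251 and 287 counts at pH 6.5 against 446, 466, 369, 346 and 379 at pH 7.4. No pH 6.5 library reached the pH 7.4 range (change -0.57 ± 0.17, adjusted p = 0.0382). That call was lost without pH 6.5 replicate 1 (0.205) or 3 (0.0659), without pH 7.4 replicate 3 (0.0832), 5 (0.0611) or 7 (0.0657), and with all libraries as labelled (0.0521, change -2.22). In FaDu ACAA2 was on the higher side, with 484, 397, 521, 606 and 377 counts at pH 6.5 against 254 at pH 7.4. That change was 0.89 ± 0.26 (adjusted p = 0.0834), and it passed without pH 6.5 replicate 1 (0.0344), by DESeq2 (0.0236) and with all libraries as labelled (0.71, adjusted p = 0.00643). In SiHa ACAA2 was at -0.43 ± 0.35 (adjusted p = 0.368).

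The electron transfer flavoprotein pairs ETFA with ETFB, and ETFDH passes its electrons to ubiquinone. ETFB rose in HCT116, with 811 and 498 counts at pH 6.5 against 336, 356, 349, 317 and 386 at pH 7.4 (change 0.87 ± 0.19, adjusted p = 0.00816; 0.114 without pH 6.5 replicate 1). Its partner ETFA had a change of -0.08 ± 0.13 in that line. ETFB was at -0.06 in SiHa and 0.09 in FaDu, where it passed as labelled (0.61, adjusted p = 0.00674), and neither ETFA nor ETFDH was called in any line. Without FaDu pH 6.5 replicate 1 ETFA had an adjusted p of 0.0326 at -0.39.

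**Figure D4:**
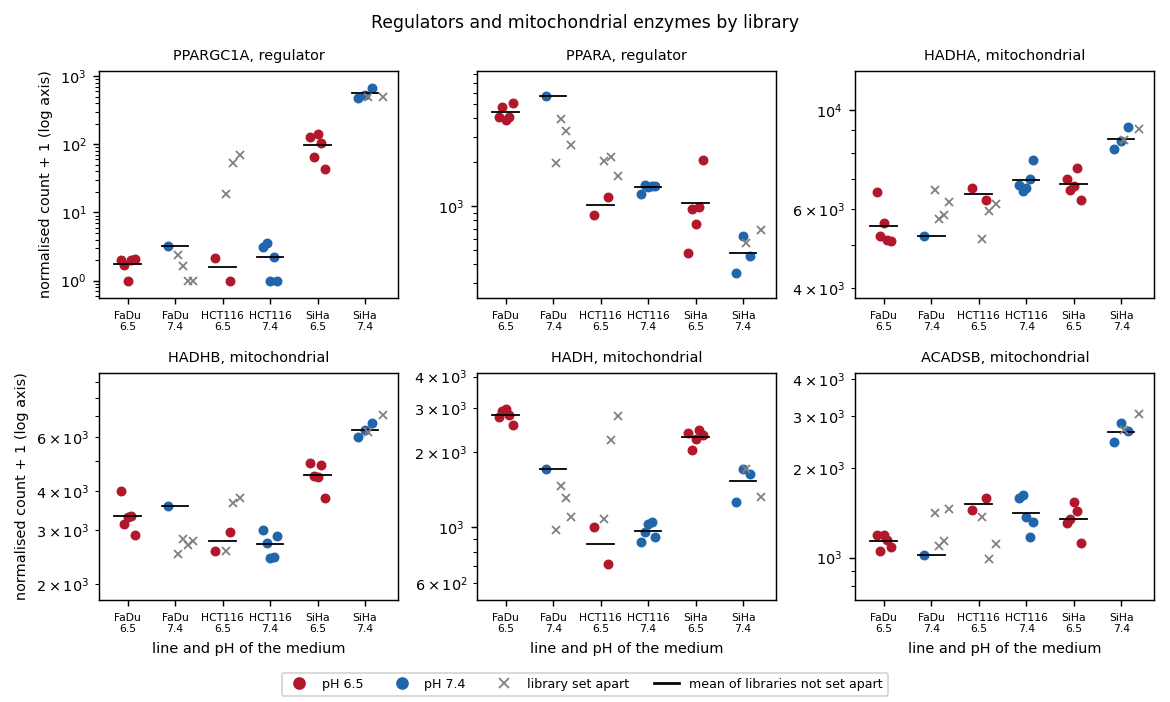
Normalised counts plus 1 (log axis) of 2 regulators and 4 mitochondrial enzymes in each library, by line and pH, with pH 6.5 left of pH 7.4; bars are means of the libraries not kept apart and crosses are libraries kept apart. In SiHa, ACADSB stands at 1123 to 1541 at pH 6.5 and 2445 to 2850.2 at pH 7.4, and HADH at 2030.2 to 2441 at pH 6.5 and 1265 to 1707 at pH 7.4.

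Peroxisomal members moved one by one. ACAA1, the peroxisomal thiolase, was called in opposite directions in a pair of lines. In SiHa it had 1094, 1033, 1084, 987 and 903 counts at pH 6.5, against 1766, 1320.4 and 1689.8 at pH 7.4 (change -0.63 ± 0.12, adjusted p = 0.00262), and this held when any 1 library was left out. In HCT116 it had 1396 and 1194 counts at pH 6.5, against 790.1, 949.7, 903, 941 and 894 at pH 7.4 (0.53 ± 0.14, adjusted p = 0.0179). The HCT116 call was lost without pH 6.5 replicate 1 (0.135) and with all libraries as labelled (0.828, change 0.06). Neither line's groups overlapped. Of the ACAA1 exon bases, 21.2% are shared with other genes.

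DECR2, the peroxisomal reductase for unsaturated chains, was higher in FaDu, with 584, 786, 807, 783 and 720.2 counts at pH 6.5 against 365 at pH 7.4 (change 1.00 ± 0.20, adjusted p = 0.0323). The call was lost without replicate 2 (0.0713), 3 (0.0956), 4 (0.0946) or 5 (0.0705). Of the DECR2 exon bases, 14.1% are shared with another gene, NME4, on the same strand. In HCT116 DECR2 was at 0.44 ± 0.18 (adjusted p = 0.119), and it passed without pH 7.4 replicate 1 (0.031) and with all libraries as labelled (0.80, adjusted p = 0.027). ACOX3, an oxidase for branched chains, rose in SiHa, with 643, 534, 611, 685 and 638 counts at pH 6.5 against 449, 422 and 477 at pH 7.4 (0.46 ± 0.11, adjusted p = 0.0103), and held when any 1 library was left out. The ACOX3 call in SiHa was lost in 1 of 13 runs with other settings. EHHADH and HSD17B4, the bifunctional enzymes, were not called in any line. Their changes were 0.07 and 0.19 in SiHa, 0.47 and 0.13 in HCT116, and 0.26 and -0.28 in FaDu. In HCT116 EHHADH passed by DESeq2 (0.0402) and with all libraries as labelled (0.58, adjusted p = 0.0267).

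**Figure D5:**
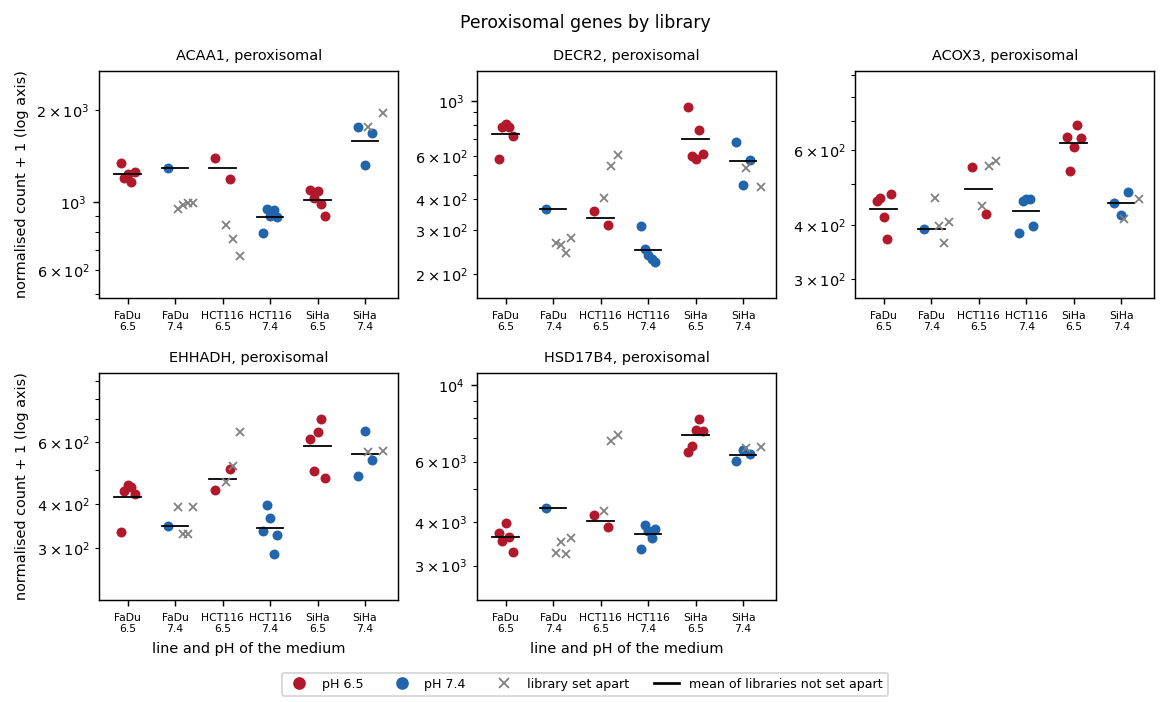
Normalised counts plus 1 (log axis) of the 5 peroxisomal genes in each library, by line and pH, with pH 6.5 left of pH 7.4; bars are means of the libraries not kept apart and crosses are libraries kept apart. ACAA1 stands at 903 to 1094 in SiHa at pH 6.5 and 1320.4 to 1766 at pH 7.4, and at 1194 to 1396 in HCT116 at pH 6.5 and 790.1 to 949.7 at pH 7.4.

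PPARGC1A, the coactivator, had the largest fall of any member. In SiHa it had 125, 64.4, 143, 105 and 41.8 counts at pH 6.5, against 476, 526 and 667 at pH 7.4. Every pH 6.5 library was below every pH 7.4 library, the change was -2.64 ± 0.35 (adjusted p = 0.000453), and it held when any 1 library was left out. The SiHa pH 7.4 replicates 6 and 7, kept apart, held 499.8 and 487 counts, and with all libraries as labelled the change was -2.58 (adjusted p = 5.02e-05). FaDu and HCT116 held at most 2.61 counts in any library not kept apart, below the limit for testing. PPARGC1A has 2 RefSeq windows on GRCh38.p14, both on the minus strand of chromosome 4, with starts 591804 bases apart. They are shown because the counts are summed over the gene and do not separate its starts. The windows are numbered by coordinate, so on the minus strand the second lies upstream of the first. The first is chr4:23881052-23881351, with 44% G and C, and the second chr4:24472856-24473155, with 72%. Capitals mark the GC box and the E-box CACGTG, both found in the second window.
PPARGC1A start 1: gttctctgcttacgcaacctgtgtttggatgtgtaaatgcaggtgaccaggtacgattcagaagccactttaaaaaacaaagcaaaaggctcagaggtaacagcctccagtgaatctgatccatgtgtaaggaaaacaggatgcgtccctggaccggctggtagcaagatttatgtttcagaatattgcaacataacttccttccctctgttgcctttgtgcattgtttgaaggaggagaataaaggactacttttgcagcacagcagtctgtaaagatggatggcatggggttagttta
PPARGC1A start 2: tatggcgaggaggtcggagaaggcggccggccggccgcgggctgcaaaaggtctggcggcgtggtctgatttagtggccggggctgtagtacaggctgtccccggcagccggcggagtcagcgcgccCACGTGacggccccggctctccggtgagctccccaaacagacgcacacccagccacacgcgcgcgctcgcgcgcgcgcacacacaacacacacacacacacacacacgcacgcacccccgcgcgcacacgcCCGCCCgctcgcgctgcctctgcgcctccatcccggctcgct

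PPARA, the receptor, was not called in any line. In SiHa it had 476, 963, 756, 991 and 2059.8 counts at pH 6.5, against 350.3, 620.4 and 458 at pH 7.4, and the groups overlapped (change 1.01 ± 0.37, adjusted p = 0.0583). It passed without pH 6.5 replicate 1 (1.25, adjusted p = 0.0107), by edgeR (1.16, adjusted p = 0.0443) and with all libraries as labelled (0.84, adjusted p = 0.0496). In HCT116 it had 864 and 1160.0 counts at pH 6.5, against 1207, 1405, 1361, 1387 and 1384 at pH 7.4, with no overlap (-0.43 ± 0.15, adjusted p = 0.0578). It passed there without pH 6.5 replicate 3 (-0.64, adjusted p = 0.0216) or pH 7.4 replicate 1 (-0.47, adjusted p = 0.0267), and as labelled it was 0.14 (adjusted p = 0.674). In FaDu it had 4089, 4826, 3927, 4083 and 5126 counts at pH 6.5, against 5688 at pH 7.4 (-0.38 ± 0.17, adjusted p = 0.198).

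The pH response was then compared between the lines in 1 fit, with a limma F-test of the interaction. It differed for 15 of 32 members tested, 46.9%, against 33.1% of all genes. The smallest adjusted p belonged to CPT1C (4.55e-05), where SiHa is at the level of a few reads, then to ACAA1 (6.46e-05), ACADSB (7.48e-05), ACAD8 (0.000477), CRAT (0.00196), HADH (0.00218), ETFB (0.00609) and ECHS1 (0.0107). Between HCT116 and SiHa alone, the response of ACAA1 differed by 1.16 ± 0.16, that of ACADSB by 1.09 ± 0.17 and that of ECHS1 by 0.60 ± 0.16, each on the log2 scale as HCT116 minus SiHa. The response of HADH differed by -0.78 ± 0.17 on that scale and that of CRAT by 0.49 ± 0.45. CRAT fell in both of these lines, so its F-test result rests on FaDu. There the pH 7.4 side is 1 library, with 30.8 counts of CRAT. ACADSB, ACAD8, ECHS1 and ACAA1 passed in every alternative run. ETFB was lost without HCT116 pH 6.5 replicate 1 (0.107), and with all libraries as labelled CPT1C (0.202), HADH (0.209) and CRAT (0.397) were lost. ACADVL and ACAD9, called higher in SiHa and HCT116, gave adjusted p-values of 0.483 and 0.555 in this test. In SiHa the ACADVL change was 0.44 and in HCT116 0.73, a difference of 0.28 ± 0.21.

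Between the lines, at pH 7.4, 27 of 32 members differed between HCT116 and SiHa, against 72.1% of all genes, 7 of them higher in HCT116 (36.5% of all genes) and 20 lower (35.6%), with a median of -0.58 beside 0.01 over all genes tested. Of 18 mitochondrial members, 12 were lower in HCT116, among them ECHS1 (-1.28 ± 0.11), HADHB (-1.24 ± 0.11) and ETFB (-1.11 ± 0.14). ECI2, a second isomerase, went the other way, with 621, 560.3, 553, 624 and 694 counts in HCT116 against 22.4, 36.9 and 14.7 in SiHa (4.66 ± 0.26, adjusted p = 9.84e-13). Of the ECI2 exon bases, 29.8% are shared with other genes. CRAT was higher in HCT116 by 4.37 ± 0.30, ACAA2 by 2.81 ± 0.27 and PPARA by 1.54 ± 0.28. PPARGC1A stood at 0 to 2.61 counts in HCT116, within the floor of 3 reads, against 476 to 667 in SiHa.

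At pH 6.5, where neither group has a library kept apart, 29 of 32 members differed between FaDu and SiHa, against 73.7% of all genes, 13 higher in FaDu (39.2% of all genes) and 16 lower (34.5%). CPT1A was higher in FaDu by 2.07 ± 0.12, ACADM by 1.68 ± 0.09 and PPARA by 2.23 ± 0.24. ECI2 was higher by 4.28 ± 0.23 and ACAA2 by 3.48 ± 0.23. Lower in FaDu were SLC25A20 (-1.27 ± 0.12), SLC22A5 (-1.26 ± 0.11) and ETFA (-1.12 ± 0.10). CPT1C had 193 to 279.9 counts in FaDu against 0 to 2.7 in SiHa, where every library was within its floor of 3 reads.

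Per kilobase of exon, in the GENCODE 29 annotation, the same few enzymes led in every group. ECHS1 was first in FaDu and SiHa at either pH, with 3033 counts per kilobase in FaDu and 2323 in SiHa at pH 6.5, and ACADVL was first in HCT116, with 2717 at pH 6.5 and 1648 at pH 7.4. HADHA stood between rank 2 and rank 4 of 33 in all 6 groups. CPT1A was rank 8 or 9 in FaDu and HCT116 and rank 15 in SiHa, and CRAT was rank 15 in HCT116 at pH 6.5 and rank 11 at pH 7.4 but rank 28 to 30 in the other lines. Summed over the 19 mitochondrial genes, SiHa held 51941 ± 1993 counts at pH 6.5 (SD, n = 5) and 54373 ± 2635 at pH 7.4 (SD, n = 3), and the ranges overlapped. In HCT116 that sum was 42877 and 48718 at pH 6.5 against 37589 to 40640.0 at pH 7.4. Much of the HCT116 difference lay in ACADVL, with a mean of 13216.5 at pH 6.5 and 8018.7 at pH 7.4. Of 18 mitochondrial members tested there, 3 were called higher and 1 lower. In FaDu the sum was 44579 to 51682 at pH 6.5 against 41890 in the lone pH 7.4 library.

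A wider list of 87 genes of fatty acid oxidation, in 5 groups, was all found. In SiHa 79 were tested, with 8 higher and 12 lower at pH 6.5, against the 31.2% of all genes called; in HCT116 78 were tested, with 6 higher and 8 lower, against 20.2% of all genes; in FaDu 80 were tested, with 3 higher and 2 lower, against 7.36% of all genes. With all libraries as labelled, 10 of 80 were higher and 21 lower in SiHa (40.8% of all genes were called), 7 of 81 higher and 12 lower in HCT116 (18.2%), and 28 of 83 higher and 18 lower in FaDu (46.3%). Single libraries were not left out for these genes.

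In SiHa the genes with the largest falls were regulators and carnitine genes. PPARG, the fat cell receptor of the PPAR family, had 228 ± 68.3 counts at pH 6.5 (SD, n = 5) and 978 ± 65.4 at pH 7.4 (SD, n = 3), a change of -2.15 ± 0.23 (adjusted p = 0.000144). BBOX1, the last enzyme of carnitine synthesis, fell by 2.03 ± 0.46 but held 2.16 counts at pH 6.5 and 11.4 at pH 7.4. SLC25A45, a mitochondrial carrier, fell by 1.84 ± 0.26. Of the 24 regulators, 22 were tested and 5 fell, where 16.2% of all genes were lower; ESRRA, an estrogen-related receptor that works with PPARGC1A, named after its value was seen, was at -1.08 ± 0.11. MMAB (0.70 ± 0.11), PPARD (0.55 ± 0.09) and TMLHE (0.52 ± 0.15) had the largest rises.

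In HCT116, HNF4A, a liver and gut receptor that is also a colon marker in the list above, had 11.4 ± 4.87 counts at pH 6.5 (n = 2) and 621 ± 63.8 at pH 7.4 (SD, n = 5), a change of -5.70 ± 0.23 (adjusted p = 2.12e-08). ACOX2, a peroxisomal oxidase for branched chains, fell by 2.71 ± 0.33, and NRIP1, a corepressor, by 1.83 ± 0.37. Of 24 regulators, 23 were tested and 5 fell in this line, where 11.1% of all genes were lower. CAT (0.88 ± 0.14), ETFRF1 (0.81 ± 0.21) and ACAT1 (0.61 ± 0.15) had the largest rises, and with all libraries as labelled CAT (0.10, adjusted p = 0.812) and ACAT1 (0.08, adjusted p = 0.801) did not pass. In FaDu, PEX11A, which acts in peroxisome division, was higher by 1.59 ± 0.22 (adjusted p = 0.0167), SLC25A29 by 1.18 ± 0.26 and ABCD3, a peroxisomal importer of acyl-CoA, by 0.53 ± 0.12. ABCD4 was lower by 0.60 ± 0.14 and ACBD5 by 0.60 ± 0.14. As labelled, SLC25A29 (adjusted p = 0.134) and ABCD4 (adjusted p = 0.902) did not pass.

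Over 32 members, the libraries kept apart differed in which group they lay nearest to. In HCT116 pH 6.5, the mean absolute log2 difference of replicates 6 and 7 from the SiHa pH 6.5 mean was 0.427 and 0.356, against 0.704 and 0.705 from the SiHa pH 7.4 mean and 1.29 and 1.41 from the HCT116 pH 7.4 mean. They held 51.7 and 68.9 counts of PPARGC1A and 6.94 and 3.17 of ECI2. Replicate 5 of that group lay 0.547 from the HCT116 pH 7.4 mean and 0.553 from the HCT116 pH 6.5 mean, and held 17.7 counts of PPARGC1A. FaDu pH 7.4 replicates 2 to 5 lay nearest to HCT116 at pH 7.4, at 0.170, 0.368, 0.367 and 0.243. SiHa pH 7.4 replicates 6 and 7 lay nearest to the other SiHa pH 7.4 libraries, at 0.186 and 0.311. Among libraries not kept apart, HCT116 pH 6.5 replicate 3 lay nearer to the HCT116 pH 7.4 mean (0.313) than to replicate 1 of its own group (0.357).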

How the data were processed

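Reads per gene were measured in 30 libraries. The authors deposited 1 table of normalised counts (unit signal, that is, counts divided by a size factor). Per the submitters' processing notes, bcl2fastq 2.20, FastQC, Trimmomatic 0.38, STAR 2.6.1d and DESeq2 1.22.2 were used with build GRCh37; for the counting program, the strand setting and the annotation no source used here gives a name, so overlapping genes cannot be told apart by strand. Every value was a whole multiple of the library's smallest value within 0.01 of a step, so whole reads could be recovered for the count tests. Symbols for 35466 identifiers came from a GRCh38 annotation; 2656 had none. No column of another series was present.

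Members, lists and the 9 libraries kept apart were chosen with earlier results of these data known. limma 3.58.1 in R 4.3.3, with an intensity trend, tested log2 of the normalised count plus 1, 2-sided, on genes whose higher group averaged 10 or more, with Benjamini-Hochberg adjustment over all genes. The fold of low genes is understated by the added 1. edgeR 4.0.16 and DESeq2 1.42.0 on whole reads were alternatives, run beside Python 3.11.15 (matplotlib 3.10.9, scipy 1.17.1, pandas 2.3.3, numpy 2.4.6). The fits were run on simulated counts with the same dispersion for every gene and no effect of single libraries. That setting differs from these data, so it cannot show how the fits fare when single libraries deviate. Per-library values were given for up to 8 called members per line by absolute log2 change, up to 8 by F-test, and PPARA, PPARGC1A, CPT1A and CPT2; of other genes, up to 3 per direction and line. HADHA was added after its values were seen. Replicate numbers were not taken as pairs and no block was used in the main tests.

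Line identity used 24 genes restricted to FaDu, 33 to HCT116 and 28 to SiHa, each reaching 10 CPM in all 5 libraries of FaDu pH 6.5, HCT116 pH 7.4 or SiHa pH 6.5, and staying at or under 1% of that in the other lines. Promoter windows came from RefSeq; 25 of 33 members had one.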

Additional observations from a re-analysis of the deposited data

Results flagged for a closer look

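In 92 tests, each of 1 gene in 1 group of 5 libraries, a library lay far from the others in 5, where chance gives about 1 in 20. The tests share the libraries of FaDu pH 6.5, HCT116 pH 7.4 and SiHa pH 6.5, so they are not independent. Of the 5 found, 3 were FaDu pH 6.5 replicate 1, with 776 counts of ACAD10, 5913 of ECHS1 and 332 of EHHADH. The others were HCT116 pH 7.4 replicate 1, with 1207 counts of PPARA, and SiHa pH 6.5 replicate 4, with 1012 of ACAD8.

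The pH response differed between the lines by the limma F-test for 15 members. The adjusted p was 4.55e-05 for CPT1C, 6.46e-05 for ACAA1, 7.48e-05 for ACADSB, 0.000477 for ACAD8, 0.00196 for CRAT, 0.00218 for HADH, 0.00609 for ETFB and 0.0107 for ECHS1. It was 0.0212 for PPARA, 0.0303 for DECR1, 0.0362 for ACADS, 0.0364 for HADHB, 0.0392 for CPT1A, 0.0395 for PPARGC1A and 0.0441 for ACADM. These 7 calls depended on single libraries. Over 20 runs that each left out 1 library, the call was lost in 11 for ACADM, 9 for CPT1A and 9 for PPARGC1A. The call was lost in 7 of these runs for HADHB, 5 for ACADS, 2 for PPARA and 2 for DECR1. PPARGC1A is near 0 in FaDu and HCT116, and its adjusted p was 0.745 by edgeR and 0.702 by DESeq2.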

How the results depend on the processing

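With 1 library left out at a time, members called ran from 9 to 16 in SiHa (all genes 3551 to 6473), 2 to 9 in HCT116 (2198 to 5150), 0 to 14 in FaDu (66 to 7039), 10 to 17 for the difference between lines (5955 to 8922), 26 to 29 for HCT116 over SiHa (13619 to 14586) and 27 to 29 for FaDu over SiHa (14225 to 14748). With SiHa pH 7.4 replicate 1 alone, 4 members and 1870 genes were called. In HCT116, 4 members were called with no filter. In FaDu, all libraries as labelled gave 17 members and 9115 genes, edgeR on them 17 and 9234, DESeq2 gave 2685 genes and 1 fit over 6 groups 2602 genes. The edgeR run on all libraries as labelled was chosen after seeing the data. Signs turned for CPT1C in HCT116 (-0.74 as labelled) and CRAT in FaDu (-2.95 by edgeR as labelled). The cause was not tested.

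The replicate numbers were not taken as pairs. Deviations of same-numbered libraries from their group means correlated at 0.316, 0.048 and 0.079 in SiHa and at 0.173 and 0.055 in HCT116. The highest value in each line was that of replicate 1. Whether same-numbered libraries share a culture or a batch was not tested. With the replicate block, 14 members and 5237 genes were called in SiHa and 6 and 2927 in HCT116. With the replicate block and all libraries as labelled, the counts were 21 and 8139 in SiHa, 1 and 1407 in HCT116 and 19 and 8851 in FaDu, with signs turned for CPT1C in HCT116 (-0.74) and for HADHB (0.22), ACAA1 (0.26) and CRAT (-2.23) in FaDu. Without the libraries kept apart, FaDu has 1 pair and no block could be fitted. Depth limits PPARGC1A in FaDu and HCT116, CPT1C in SiHa and ACAD11, which lie at a few reads.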
